A study of Mus musculus with 80 samples.

Results

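The genes described here drive or mark the last phase of the cell cycle, G2 and mitosis. They were taken from a list of 50 names covering cyclins, mitotic kinases, the chromosomal passenger complex, the spindle checkpoint, kinesins, kinetochore proteins, cytokinesis factors and condensin, matched to the array by gene ID. Of the 50, 47 had a probe set assigned to them alone, and all 47 passed the filter on dim signals, among 8769 tested genes of 12393 genes on the array. Ccnb1, Cdca8 and Espl1, which had none, were not analysed here.

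The samples were 80 mouse mammary tumours, 1 array each, with 20 tumours from E2F1 null, 20 from E2F2 null, 20 from E2F3 heterozygous and 20 from E2F wild-type animals. All 4 groups, wild type included, carried the MMTV-Myc transgene, in which the promoter of the mouse mammary tumour virus drives the oncogene Myc in mammary epithelium, and all were on the FVB strain. E2F1, E2F2 and E2F3 are transcription factors that act downstream of the retinoblastoma protein at the entry into S phase, and the series asks how Myc tumours differ when 1 of them is lost or reduced. Tumours were frozen whole, the sources used here give neither ages nor the structure of the engineered alleles, and 46 tumours shared a label number with another tumour of their genotype.

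Cells entering mitosis switch on a large set of genes late in the cycle. Cyclin B with Cdk1 starts mitosis, Plk1 and the Aurora kinases build the spindle, the checkpoint holds chromosome separation back until every kinetochore is attached, and Cdc20 with the anaphase-promoting complex then releases it. Many of these genes are repressed in resting cells by the DREAM complex and activated in cycling cells by B-Myb and FoxM1, which act through a promoter element called CHR, often near CCAAT boxes bound by NF-Y. In bulk tumour RNA a higher level of such genes can reflect more dividing cells or more RNA per dividing cell, and these cannot be told apart.

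The promoters of 4 members whose signals followed the others closely are shown. Only promoters that held both CHR and CCAAT matches were eligible, so the presence of both in them is no finding. Smc2 and Top2a also qualified and are not shown. Smc2 had CHR matches 145 bases before and 26 bases after the gene start and a CCAAT match 119 bases before it. The windows come from RefSeq on the build GRCm38.p6, which is the C57BL/6J reference and not FVB. Each window runs from 250 bases before to 50 bases after the gene start and is written 5′ to 3′ on the strand of the gene. Capitals mark matches to CHR (TTTGAA or TTCGAA), to CCAAT and to the E2F motif, on either strand, so that TTCAAA and ATTGG are matches read on the other strand. The windows lie at chr10:69352863-69353162 on the minus strand for Cdk1, chr2:127831810-127832109 on the minus strand for Bub1, chr19:37376132-37376431 on the plus strand for Kif11 and chr4:118437294-118437593 on the minus strand for Cdc20.
Cdk1: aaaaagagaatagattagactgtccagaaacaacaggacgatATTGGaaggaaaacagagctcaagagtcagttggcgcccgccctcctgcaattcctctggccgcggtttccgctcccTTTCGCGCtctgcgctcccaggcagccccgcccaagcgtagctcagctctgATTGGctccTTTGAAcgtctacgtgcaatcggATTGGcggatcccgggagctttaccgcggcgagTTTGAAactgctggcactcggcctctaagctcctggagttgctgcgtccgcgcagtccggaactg
Bub1: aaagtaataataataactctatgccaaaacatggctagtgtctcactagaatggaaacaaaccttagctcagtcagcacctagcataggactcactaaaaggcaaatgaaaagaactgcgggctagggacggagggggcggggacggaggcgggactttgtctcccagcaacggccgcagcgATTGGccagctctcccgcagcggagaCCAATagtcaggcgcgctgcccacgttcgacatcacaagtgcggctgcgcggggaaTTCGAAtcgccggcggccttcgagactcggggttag
Kif11: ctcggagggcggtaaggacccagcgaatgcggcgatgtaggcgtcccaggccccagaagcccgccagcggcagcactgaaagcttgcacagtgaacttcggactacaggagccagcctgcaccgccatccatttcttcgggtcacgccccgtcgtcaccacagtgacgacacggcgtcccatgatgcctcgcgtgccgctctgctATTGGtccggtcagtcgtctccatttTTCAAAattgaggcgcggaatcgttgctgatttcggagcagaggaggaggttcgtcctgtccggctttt
Cdc20: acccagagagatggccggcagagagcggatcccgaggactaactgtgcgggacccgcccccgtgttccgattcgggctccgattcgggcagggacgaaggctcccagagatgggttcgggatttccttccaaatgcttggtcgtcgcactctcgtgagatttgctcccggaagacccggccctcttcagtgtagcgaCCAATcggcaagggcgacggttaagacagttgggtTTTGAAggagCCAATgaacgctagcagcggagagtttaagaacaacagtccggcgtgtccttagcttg

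In the Cdk1 window, CHR matches began 71 and 15 bases before the gene start, CCAAT matches 208, 80 and 48 bases before it, and an E2F match 131 bases before it. In the Kif11 window the CHR match began 19 bases and the CCAAT match 45 bases before the start. The Cdc20 window held a CHR match 18 bases before the start, with CCAAT matches 53 and 8 bases before it. In Bub1 the CHR match, TTCGAA, began at base 14 after the start, and CCAAT matches began 68 and 42 bases before it. No capital stretches overlapped in these 4 windows.

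Promoter windows of 300 bases were found for 40 of the 47 members. CHR occurred in 31 of the 40 (77.5%), against 19.4% of all 27025 RefSeq windows and 13.5% of the windows of 7104 tested genes. CCAAT also occurred in 31 of the 40, against 37.9% of all windows. Both stood together in 28 windows (70.0%), against 7.70% of all windows. The E2F motif, searched as TTTCCCGC, TTTCGCGC, TTTGCCGC and TTTGGCGC on both strands, was in 3 of the 40 (7.50%), against 2.32% of all windows and 4.38% of those of tested genes. Members lacking a CHR match in the window included Birc5, Melk, Nusap1, Pttg1 and Mad2l1. These are matches of letters, and no binding was measured.

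Across the 80 tumours the members moved together over a moderate range. For each tumour, the log2 signal of every member minus the average of that member over all tumours was averaged over the 47 members. This mean ran between -0.90 in wild-type tumour 18 and 0.52 in wild-type tumour 5, a span of 1.41 on the log2 scale or 2.66-fold. In wild-type tumour 18 all 47 members lay below their own average, and in wild-type tumour 5 they lay above it in 46 of 47. The next lowest tumours were E2F1 null tumour 6 at -0.80, E2F1 null tumour 19 at -0.68, wild-type tumour 6 at -0.63 and E2F3 heterozygous tumour 13 at -0.62. Among single members the highest tumour exceeded the lowest by 2.16-fold to 19.9-fold, with a median of 3.52-fold. The 19.9-fold was that of Cenpe, a dim gene above the filter value on 43 of 80 arrays, and Racgap1 followed with 7.96-fold. The 90th percentile exceeded the 10th by a median of 1.94-fold. The SD of the log2 signal had a median of 0.39 over members and 0.36 over all tested genes.

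**Figure D1:**
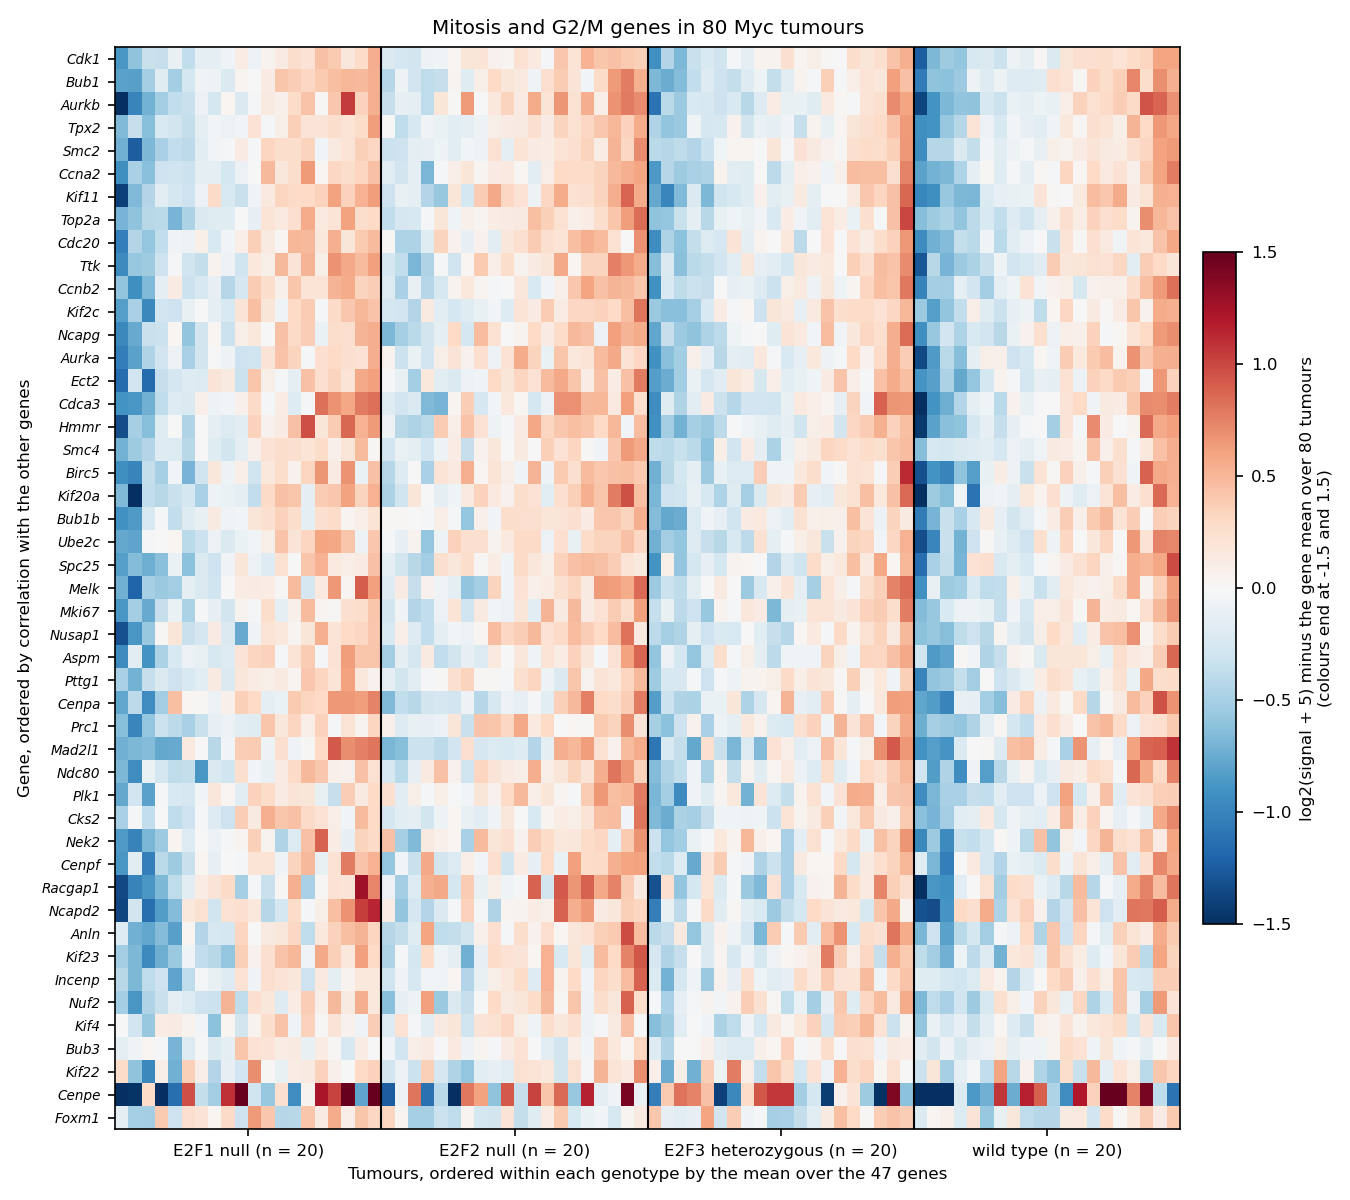
Log2 signal of each of the 47 members (rows, ordered by correlation with the other members) in each of the 80 tumours (columns, by genotype and then by the mean over members), as the difference from the average of that member over all tumours. Most rows turn blue and red in the same columns, and the leftmost wild-type column, tumour 18, is blue in all 47 rows.

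The first principal component of the members, each scaled to unit variance, held 64.3% of their variance and the second held 5.21%. Over the 1081 pairs of members the median Pearson r was 0.66, and 818 pairs had an r over 0.5. The median over pairs of all tested genes was 0.006. These correlations are descriptions over 80 tumours, some of which share a label number, and genes on 1 array also share its RNA and its scaling.

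Cdk1, the kinase that triggers mitosis, followed the rest most closely: its r with the average of the other members was 0.94 (Spearman 0.94). Without the pair of tumours farthest from the median the r of Cdk1 was 0.93. Its lowest, median and highest log2 signals were 10.06, 10.93 and 11.48 in E2F1 null, 10.66, 11.10 and 11.45 in E2F2 null, 10.01, 10.96 and 11.47 in E2F3 heterozygous and 9.70, 10.91 and 11.53 in wild-type tumours. The 4 ranges overlapped over most of their length, and the E2F2 null range was the shortest. Next came Bub1, a checkpoint kinase (r = 0.92), Aurkb, the kinase of the chromosomal passenger complex (0.92), Tpx2, the spindle protein that activates Aurora A (0.92), and Smc2, an ATPase of condensin (0.91). The closest single pairs were Aurka, the centrosomal Aurora kinase, with Ube2c, the ubiquitin-conjugating enzyme of the anaphase-promoting complex (r = 0.90), and Aurka with Cdk1 (0.90).

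The median r with the other members was 0.82 over all 47, 30 members exceeded 0.8 and 40 exceeded 0.7. By role, the median was 0.89 for cyclins and their kinase, 0.86 for condensin and chromosome structure, 0.84 for anaphase onset and for the passenger complex, and 0.82 for the checkpoint and for mitotic kinases. It was 0.81 for spindle proteins, 0.77 for kinesins and for cytokinesis, and 0.75 for centromere and kinetochore proteins. The coupling was present in each genotype, with medians of 0.86 in E2F1 null, 0.72 in E2F2 null, 0.81 in E2F3 heterozygous and 0.86 in wild-type tumours. No test of the difference between genotypes was made. Leaving out E2F1 null tumour 6, an array that stood apart from the rest, left a median of 0.81, and averages per label number gave 0.84.

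**Figure D2:**
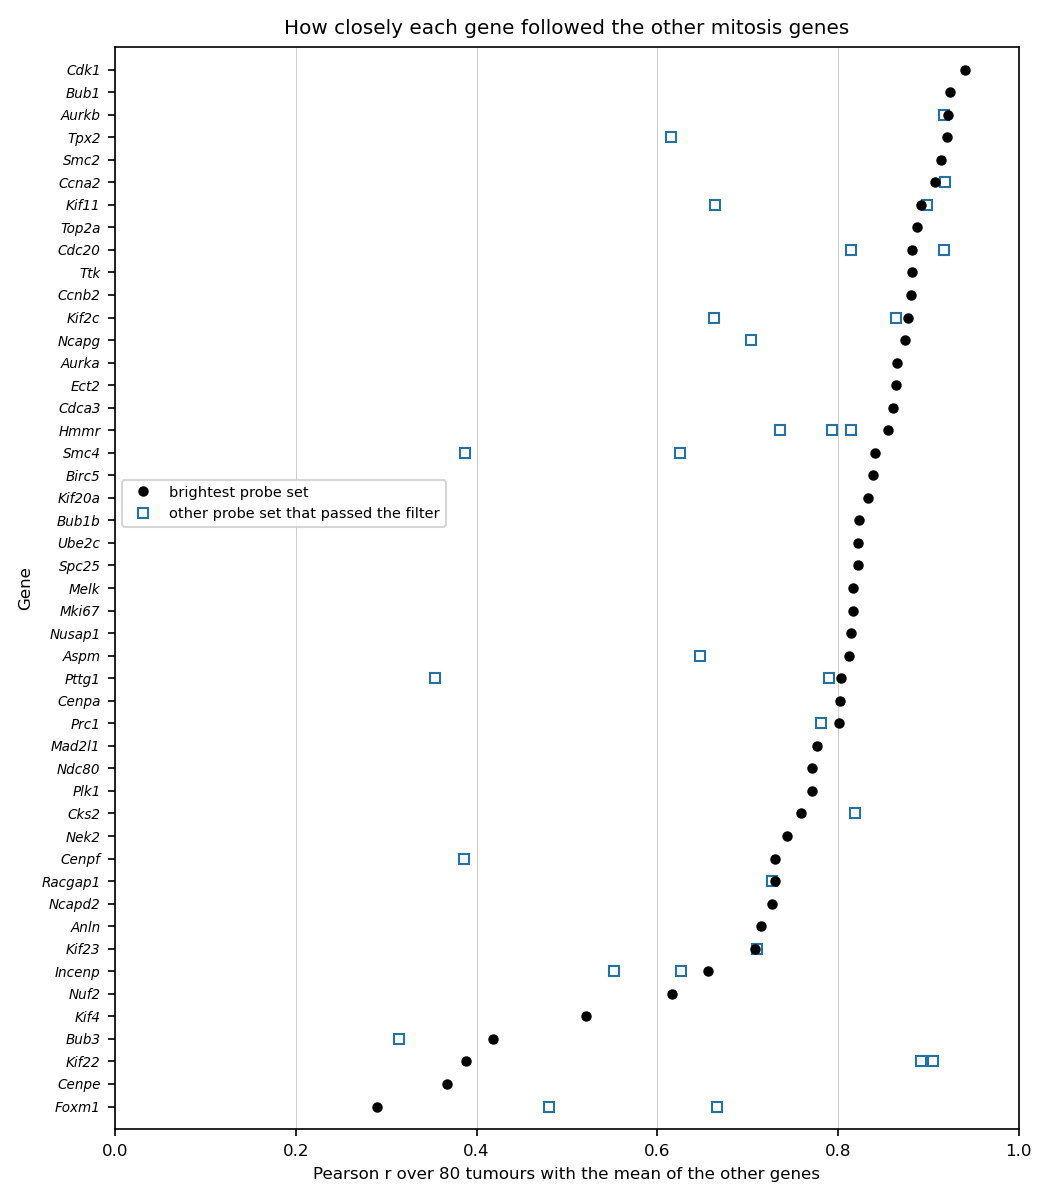
Pearson r of each member with the average of the other members over 80 tumours (horizontal axis) for the probe set used (circles) and for other detected probe sets of the same gene (squares), 1 row per member. Circles run between 0.94 for Cdk1 and 0.29 for Foxm1, with 5 under 0.6, and the squares of Kif22 at 0.91 and 0.89 lie far right of its circle at 0.39.

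In 5 members the coupling was looser, with an r under 0.6. They were Foxm1, the transcription factor of G2 genes (r = 0.29), Cenpe, a kinetochore motor (0.37), Kif22, a chromosome-arm kinesin (0.39), Bub3, a checkpoint scaffold (0.42), and Kif4, a kinesin of the central spindle (0.52). For Kif22 and Foxm1 the value depended on the probe set. The brightest probe set of Kif22 gave 0.39, while its other detected probe sets gave 0.91 and 0.89 and correlated with the brightest at 0.32 and 0.46. The other probe sets of Foxm1 gave 0.67 and 0.48. Cenpe was dim, above the filter value on 43 of 80 arrays, and Bub3 had the smallest SD of the members, 0.18. Over all members, 30 further detected probe sets of 20 genes had a median r of 0.73 with the probe set used. Of these 30, 16 exceeded 0.7 and 4 were under 0.3. Members with a higher r could also depend on the probe set. A further detected probe set gave 0.39 against 0.84 in Smc4, 0.35 against 0.80 in Pttg1 and 0.39 against 0.73 in Cenpf.

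No member passed the threshold for a difference between genotypes, an adjusted p under 0.05 by limma over 8769 genes. The count was 0 of 47 in E2F1 null against wild type, where 0.0456% of all genes were called, 0 of 47 in E2F2 null, where 0.0228% were called, and 0 of 47 in E2F3 heterozygous tumours, where 0% were called. At an unadjusted p under 0.05 the counts were 0 in E2F1 null (1.28% of all genes), 9 in E2F2 null, all higher (2.17% of all genes were higher and 3.97% lower at that level), and 0 in E2F3 heterozygous tumours (0.661%). The 3 comparisons share their wild-type tumours. In the moderated F test over 4 genotypes 0 members passed, with 0.148% of all genes called, and only Plk1 had an unadjusted p under 0.05 (p = 0.0298), where 4.24% of all genes did.

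The median member was highest in E2F2 null tumours. In E2F2 null against wild-type tumours 45 of 47 members had a positive log2 fold change, with a median of 0.18, while over all tested genes the median was -0.01 and 46.3% were positive. The lowest adjusted p was 0.752. Members whose SD was smaller in E2F2 null than in wild-type tumours numbered 42 of 47 (66.4% of all tested genes). The lowest E2F2 null tumour lay above the lowest wild-type tumour in 45 of 47 (55.7% of all tested genes). In E2F3 heterozygous tumours these counts were 36 (58.3%) and 37 (56.8%), and in E2F1 null tumours 24 (45.4%) and 21 (44.7%). In wild-type tumour 18 all 47 members lay below their own average, and counts without this tumour were not made. The mean over members was 0.11 ± 0.23 in E2F2 null and -0.05 ± 0.37 in wild-type tumours (SD, n = 20 each), with a lowest value of -0.24 in E2F2 null and -0.90 in wild-type tumours. It was -0.03 ± 0.36 in E2F1 null and -0.03 ± 0.27 in E2F3 heterozygous tumours. Members share tumours and move together, so these counts are not independent observations.

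**Figure D3:**
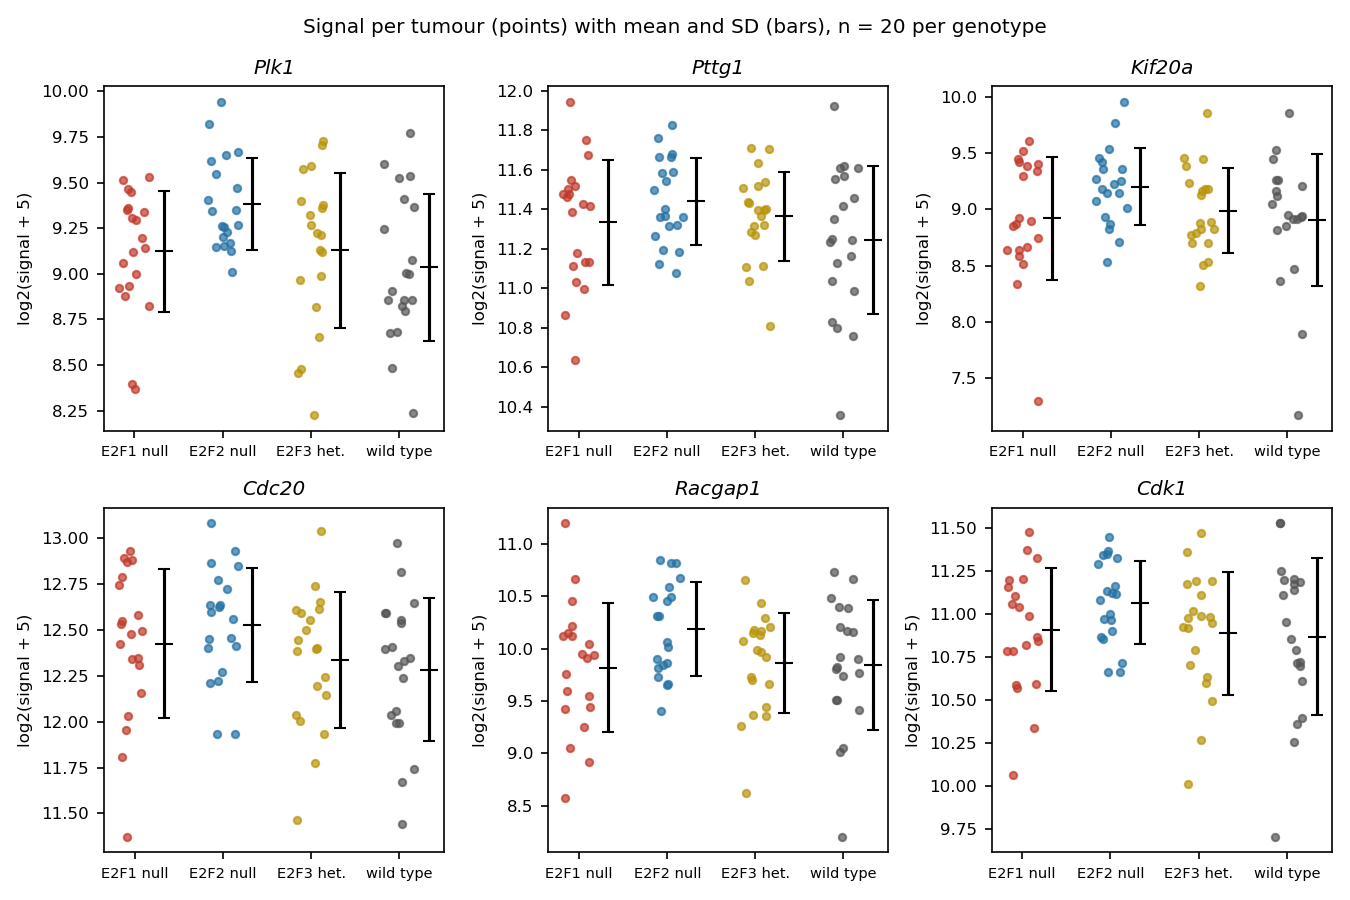
Log2 signal of single tumours (points) and group mean with SD (bar) for Plk1, Pttg1, Kif20a, Cdc20, Racgap1 and Cdk1 in E2F1 null, E2F2 null, E2F3 heterozygous and wild-type tumours, 20 each. The groups overlap in every panel, and all 20 E2F2 null points of Plk1 lie above the wild-type median of 8.95.

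Plk1, the Polo kinase of spindle assembly and mitotic entry, had the smallest p. Its lowest, median and highest log2 signals were 9.01, 9.31 and 9.94 in E2F2 null tumours, against 8.24, 8.95 and 9.77 in wild-type tumours. In E2F1 null tumours they were 8.37, 9.17 and 9.53, and in E2F3 heterozygous tumours 8.22, 9.22 and 9.73. The ranges overlapped, but all 20 E2F2 null tumours lay above the wild-type median and 2 lay above every wild-type tumour. The log2 fold change in E2F2 null tumours was 0.36 (SE 0.12, 95% interval 0.12 to 0.60), 1.28-fold, with p = 0.00408 and a limma adjusted p of 0.752. It was 0.09 (SE 0.12) in E2F1 null and 0.11 (SE 0.12) in E2F3 heterozygous tumours.

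Pttg1, securin, which inhibits separase until anaphase, measured 11.07, 11.38 and 11.83 (lowest, median, highest) in E2F2 null against 10.36, 11.25 and 11.92 in wild-type tumours. The E2F2 null range lay inside the wild-type range, and 16 of 20 tumours exceeded the wild-type median. The log2 fold change was 0.21 (SE 0.10, p = 0.0318, limma adjusted p = 0.788). Cdc20, the activator that directs the anaphase-promoting complex to securin and cyclin B, measured 11.93, 12.58 and 13.08 in E2F2 null against 11.44, 12.34 and 12.98 in wild-type tumours. Here 15 of 20 tumours exceeded the wild-type median, and the log2 fold change was 0.26 (SE 0.12, p = 0.0373, limma adjusted p = 0.788). The 2 further probe sets of Cdc20 gave 0.28 and 0.49. Kif20a, a kinesin needed for cytokinesis, measured 8.53, 9.21 and 9.96 in E2F2 null against 7.17, 8.95 and 9.86 in wild-type tumours. Its log2 fold change was 0.34 (SE 0.16, p = 0.0364, limma adjusted p = 0.788), with 15 of 20 tumours above the wild-type median.

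Racgap1, a GTPase-activating protein of the central spindle, measured 9.40, 10.18 and 10.84 in E2F2 null against 8.20, 9.87 and 10.73 in wild-type tumours. Its log2 fold change, 0.38, was the largest of any member in this comparison (SE 0.18, p = 0.0400, limma adjusted p = 0.788), with 13 of 20 tumours above the wild-type median. Its second detected probe set gave 0.26. The other 4 members at an unadjusted p under 0.05 were Ect2, the exchange factor that Racgap1 recruits (log2 fold change 0.28), Aurkb (0.34), Birc5, survivin, its partner in the passenger complex (0.30), and Ndc80, the microtubule coupler of the kinetochore (0.27). None of the 9 passed the adjusted threshold.

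By role, all 4 cyclin and kinase members, all 5 mitotic kinases and partners, all 3 passenger complex members, all 6 kinesins, all 6 kinetochore members and all 6 condensin and chromosome structure members had a positive log2 fold change in E2F2 null tumours. The medians of these roles were 0.14, 0.20, 0.30, 0.16, 0.18 and 0.12 in that order. Cytokinesis members had a median of 0.25, from 0.20 in Anln, an actin-bundling protein of the cleavage furrow, to 0.38 in Racgap1. Ccna2, cyclin A2, had 0.14 (SE 0.13), Ccnb2, a B-type cyclin, 0.14 (SE 0.13), Top2a, the topoisomerase that untangles chromosomes, 0.23 (SE 0.12), and Mki67, the proliferation marker that coats mitotic chromosomes, 0.07 (SE 0.11). Kif11, the motor that separates the spindle poles, had 0.26 (SE 0.15), and its further probe sets gave 0.28 and 0.44. Hmmr, a spindle-associated hyaluronan receptor, had 0.27 (SE 0.16), Bub1b, the checkpoint protein BubR1, 0.18 (SE 0.11), Nek2, a centrosome kinase, 0.21 (SE 0.14), and Aspm, a spindle pole protein, 0.10 (SE 0.12). Over the 30 further detected probe sets of the members, 28 had a positive value in E2F2 null tumours.

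The only negative values among the probe sets used were -0.08 for Mad2l1, the checkpoint inhibitor of Cdc20 (SE 0.17), and -0.08 for Foxm1 (SE 0.11). Both genes lie on chromosome 6, but Cdca3 and Ncapd2, which also lie there, were positive. Of the 4 members on chromosome 6, 2 were thus higher and 2 lower, with a median of 0.02. The 43 members on other chromosomes were all positive. Whether the chromosome plays a part in these values was not tested.

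**Figure D4:**
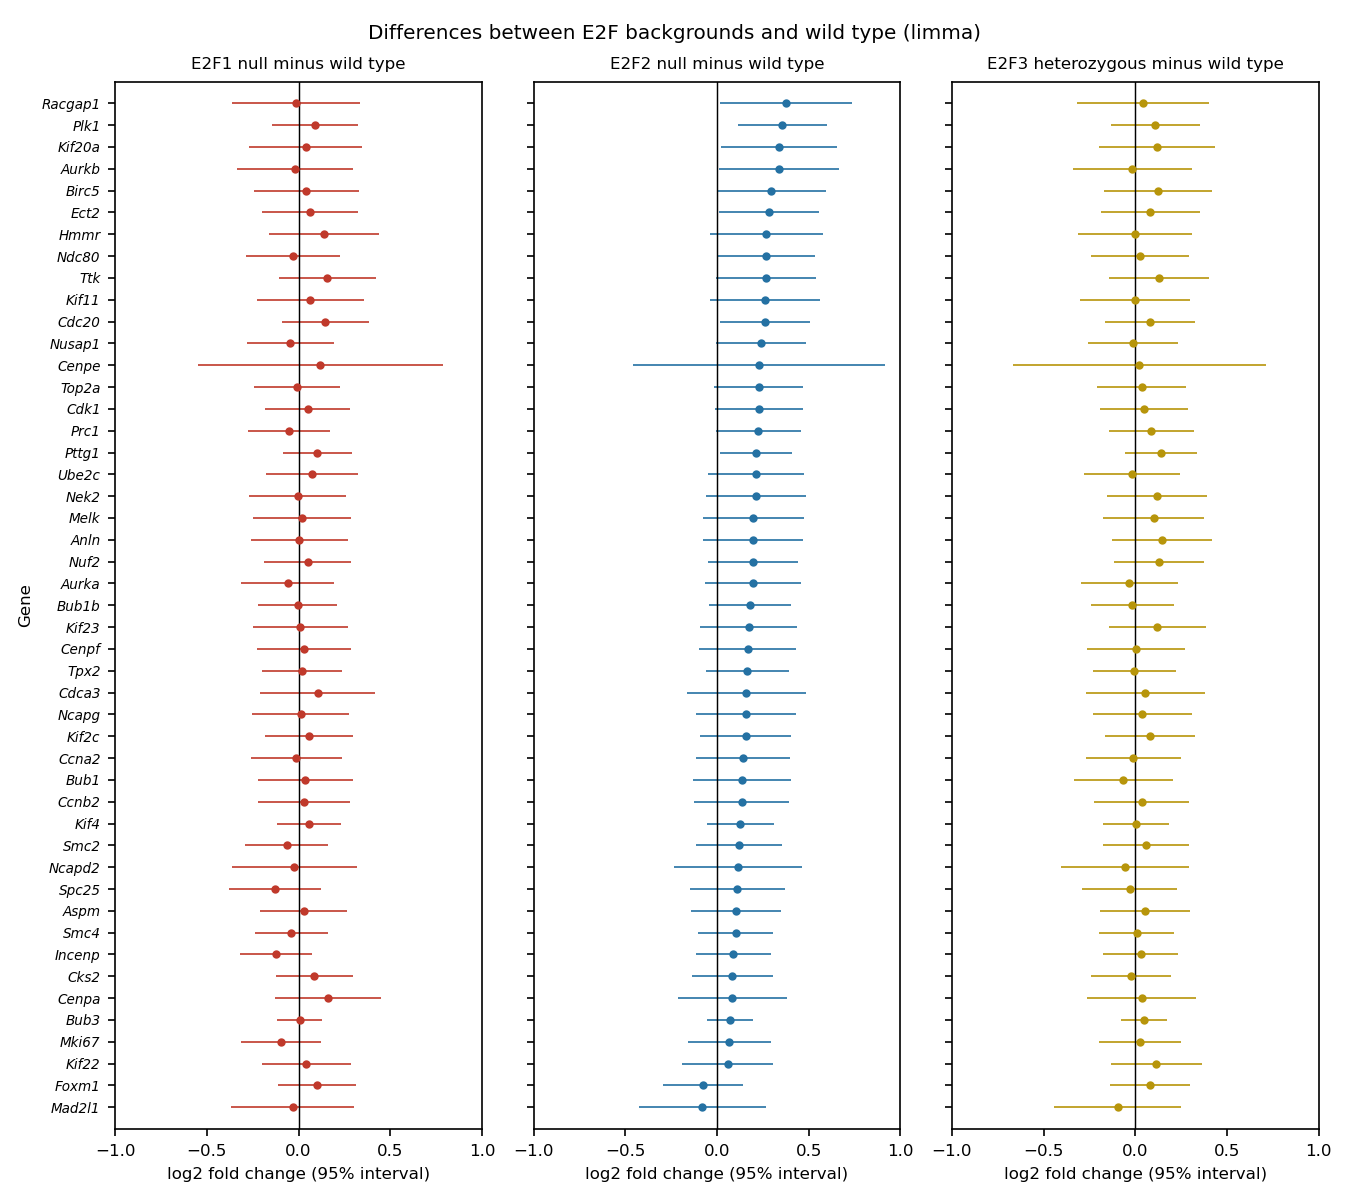
Log2 fold change with 95% interval (limma) for each member in the 3 E2F backgrounds minus wild type, ordered by the E2F2 null value. In E2F2 null tumours 45 of 47 points lie right of 0, and all intervals in the 3 comparisons stay between -1 and 1.

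In E2F1 null tumours 30 members had a positive and 17 a negative log2 fold change, where 53.3% of all tested genes were positive. The median over members was 0.03 against 0.01 over all genes. The smallest p belonged to Incenp, the scaffold of the passenger complex, which measured 10.18, 10.89 and 11.22 in E2F1 null against 10.53, 10.997 and 11.39 in wild-type tumours. The groups overlapped, and its log2 fold change was -0.12 (SE 0.10, p = 0.224, limma adjusted p = 1.000). Cdc20 followed with 0.15 (SE 0.12, p = 0.226), then Ttk, the checkpoint kinase Mps1, with 0.16 (SE 0.13, p = 0.243). Cenpa, the centromeric histone, had 0.16 (SE 0.14, p = 0.272) and Pttg1 0.10 (SE 0.10, p = 0.286). All 47 intervals lay within -1 and 1, and 46 of them within -0.5 and 0.5.

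In E2F3 heterozygous tumours 33 members had a positive and 14 a negative value, where 53.2% of all tested genes were positive. The median over members was 0.04. Pttg1 had the smallest p, with 10.81, 11.40 and 11.71 in E2F3 heterozygous against 10.36, 11.25 and 11.92 in wild-type tumours, overlapping groups and a log2 fold change of 0.14 (SE 0.10, p = 0.157, limma adjusted p = 1.000). Nuf2, an Ndc80 complex subunit, had 0.13 (SE 0.12, p = 0.294) and Anln 0.14 (SE 0.14, p = 0.298). Ttk had 0.13 (SE 0.14, p = 0.347) and Kif22 0.11 (SE 0.12, p = 0.364). Of the 47 intervals, 46 lay within -0.5 and 0.5. In E2F2 null tumours 35 did so. Leaving Cenpe aside, whose SE was 0.34 to 0.35, the intervals ran no lower than -0.44 and no higher than 0.74 in any of the 3 comparisons.

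Between the mutant backgrounds, no member passed the limma threshold either. In E2F1 null against E2F2 null tumours 0 of 47 were called (0.16% of all genes). Of the members 43 had a negative log2 fold change, as had 3849 of all 8769 genes. At an unadjusted p under 0.05 by limma, 7 were lower (3.57% of all genes, while 6.01% were higher). The smallest p was that of Prc1, which bundles the microtubules of the central spindle, with 8.37, 9.24 and 9.76 in E2F1 null against 9.004, 9.51 and 10.04 in E2F2 null tumours. The groups overlapped, and its log2 fold change was -0.28 (SE 0.12, p = 0.0187, limma adjusted p = 0.457). Nusap1, a spindle-associated protein, had -0.29 (SE 0.12, p = 0.0231), Ndc80 -0.30 (SE 0.13, p = 0.0287), Plk1 -0.27 (SE 0.12, p = 0.0299) and Aurkb -0.36 (SE 0.16, p = 0.0315). Without E2F1 null tumour 6 only 1 member was at an unadjusted p under 0.05.

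In E2F2 null against E2F3 heterozygous tumours 0 were called (0.0342%) and 45 were positive, where 44.5% of all genes were. At an unadjusted p under 0.05 by limma, 3 were higher (2.45% of all genes, while 5.07% were lower). These were Aurkb, with 0.35 (p = 0.0384), Nusap1, with 0.25 (p = 0.0481), and Plk1, with 0.25 (p = 0.04998). Racgap1 had 0.34 (SE 0.19, p = 0.0755) and Ndc80 0.24 (SE 0.14, p = 0.0810). All their adjusted p-values by limma were 0.633 or above. In E2F1 null against E2F3 heterozygous tumours 0 were called (0.0798%) and 0 reached that unadjusted level (3.4%), with the smallest p for Incenp (-0.15, SE 0.10, p = 0.141). Prc1 had -0.14 (p = 0.226), Mki67 -0.12 (p = 0.282), Smc2 -0.12 (p = 0.301) and Anln -0.14 (p = 0.307).

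Tumours with the same label number still differed in their mean over members. Its SD was 0.26 within a number and 0.31 within a genotype, over 19 numbers with several tumours. E2F1 null tumour 19, at -0.68, shared its number with a tumour at 0.12.

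A wider list of mitosis genes was set beside the members. Of 98 further names, 67 were on the array and 65 were tested, and 0 were called by limma in any comparison. Their r with the mean of the members had a median of 0.63, and 43 of 65 exceeded 0.5, as did 7.77% of all genes outside the members. The 4 below 0 were Ndel1 (-0.44), Nek7 (-0.42), Zwint (-0.33) and Cenpb (-0.01). In E2F2 null against wild-type tumours 54 were positive and 11 negative, where 46.3% of all tested genes were positive, and 9 were higher at an unadjusted p under 0.05, where 2.17% of all tested genes were. The log2 fold change of Sgo1, shugoshin, which protects centromeric cohesion, was 0.39 (SE 0.12, p = 0.00213, limma adjusted p = 0.725). In E2F1 null tumours 46 of 65 were positive (53.3% of all tested genes), and in E2F3 heterozygous tumours 37 of 65 were (53.2%).

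DNA replication genes, which are switched on earlier in the cycle, moved with the mitosis genes. Of 44 listed, 40 were tested, and 38 had an r over 0.5 with the mean of the members, with a median of 0.72. The mean over the replication genes and the mean over the members had an r of 0.92 over 80 tumours (Spearman 0.91). Within genotypes it was 0.90 in E2F1 null, 0.85 in E2F2 null, 0.96 in E2F3 heterozygous and 0.97 in wild-type tumours. In E2F2 null against wild-type tumours 36 of 40 replication genes were positive, beside the same 46.3% over all tested genes. Of these, 11 had an unadjusted p under 0.05, beside 2.17% over all tested genes, and 0 were called by limma. In E2F1 null tumours 32 of 40 were positive (53.3% of all tested genes), and in E2F3 heterozygous tumours 22 of 40 were (53.2%). The tested genes outside both mitosis lists with the pattern most like the members were Rfc5, a clamp loader subunit (r = 0.90), Ercc6l, a helicase of mitotic centromeres (0.90), Gins1 (0.87), Prim1, the primase (0.87), and Mcm10 (0.86). Next were Usp1 (0.86), Rpa2 (0.83), Cip2a (0.83), Rrm1 (0.83) and Nasp (0.83). The most opposite genes were Dnajb9, a chaperone of the endoplasmic reticulum (-0.77), Fam214b (-0.73), Parva (-0.72), Creb3 (-0.72) and Klc4 (-0.71).

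Known regulators differed in how closely they followed the members. Mybl2, which encodes B-Myb, had an r of 0.73 with their mean (Spearman 0.67). Myc had an r of 0.20 (Spearman -0.01), E2f1 0.22 (Spearman 0.18) and E2f3 0.26 (Spearman 0.28). E2f1 and E2f3 were dim, with lowest group means of 6.95 and 6.51, where the filter value was 6.31 on the log2 scale. Their r also pools all genotypes, the targeted ones included, and the part of dim signal in it was not tested. Myc averaged 13.49 in E2F1 null, 13.55 in E2F2 null, 13.46 in E2F3 heterozygous and 13.48 in wild-type tumours. As a check of the labels, the log2 fold change of E2f1 was -0.18 in E2F1 null tumours (SE 0.10, p = 0.0785) and E2f3 -0.19 in E2F3 heterozygous tumours (SE 0.12, p = 0.115), and neither passed the limma threshold by the probe set used. E2f2 had no probe set assigned to it alone and was not analysed here.

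Genes of some other cell types ran opposite to the mitosis genes. All 9 luminal epithelial markers, Krt8, Krt18 and Epcam among them, passed the filter, in accord with the labelled tissue. The mean over 10 of 11 fibroblast markers had an r of -0.58 with the mean of the members (Spearman -0.53, and -0.50 without the pair of farthest tumours). For 6 of 6 endothelial markers r was -0.53, for 8 of 8 macrophage markers -0.49, for 4 of 4 neutrophil markers -0.49, and for 5 of 6 basal and myoepithelial markers -0.44. The value was -0.34 for 1 of 6 B and plasma cell markers, -0.25 for luminal markers and -0.16 for 4 of 8 adipocyte markers. Erythroid markers, 1 of 3 tested, had -0.03 and skeletal muscle markers 0.00, and 0 of 6 T and NK cell markers passed the filter.

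The fibroblast mean ran from -1.92 to 3.01 in E2F1 null, from -1.42 to 1.26 in E2F2 null, from -1.21 to 2.29 in E2F3 heterozygous and from -1.52 to 2.73 in wild-type tumours. Its group averages were -0.12 ± 1.03, -0.17 ± 0.76, 0.33 ± 0.90 and -0.05 ± 1.13 in the same groups (SD, n = 20 each). The neutrophil mean was -0.13 ± 1.12 in E2F1 null, -0.55 ± 0.83 in E2F2 null, 0.59 ± 1.00 in E2F3 heterozygous and 0.10 ± 1.26 in wild-type tumours. The macrophage mean was -0.18 ± 0.46 in E2F2 null and 0.02 ± 0.74 in wild-type tumours, the endothelial mean -0.14 ± 0.37 and -0.05 ± 0.56 in these groups. The fibroblast, neutrophil, macrophage and endothelial averages were lower in E2F2 null than in wild-type tumours, by less than the SD of either group. The basal mean was also lower (-0.06 ± 1.33 against 0.03 ± 1.35). Other means with a negative r were higher in E2F2 null than in wild-type tumours. They were those of luminal (0.14 ± 0.43 against -0.04 ± 0.39), adipocyte (0.08 ± 1.24 against 0.04 ± 1.29) and B and plasma cell markers (0.32 ± 1.66 against -0.29 ± 1.79). E2F1 null tumour 6 had the highest fibroblast value, 3.01, and its array had a mean correlation of 0.807 with the others, where the next lowest was 0.848. The 3′ to 5′ ratio of the Gapdh control had an r of -0.01 with the mean of the members, and the median log2 signal of the array -0.33. That median averaged 8.72 ± 0.05 in E2F2 null and 8.75 ± 0.07 in wild-type tumours. With arrays centred on their medians, the median log2 fold change of the members in E2F2 null against wild-type tumours was 0.22. Without centring it was 0.18. Over all genes the median was 0.03 with and -0.01 without centring. The part of these cell types in the genotype values was not tested, nor was that of the array median beyond this.

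The members were also set against the other genes of their chromosome. The mean of the members was removed from each member and from each chromosome by regression, and what remained was correlated between the member and the other tested genes of its chromosome. An r over 0.3 was found in 19 of 47 members and in 35.3% of 7276 other genes on the same chromosomes, so the members' share was near that of other genes. The highest values are given as a description. Racgap1 had an r of 0.79 with chromosome 15 (Spearman 0.78, and 0.76 without the pair of farthest tumours), against a median of -0.12 with the other chromosomes that carry members. On chromosome 6, Mad2l1 had 0.78 against a median of 0.03, and Ncapd2, a condensin subunit, had 0.70 against -0.07. Incenp had 0.60 with chromosome 19, against a median of 0.22. Kif23, the kinesin partner of Racgap1, had 0.52 with chromosome 9 and also a median of 0.37 with the other chromosomes.

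Among tumours on 1 side of 0 these values were smaller. Such a split narrows the range of the chromosome values, which lowers r by itself, so no conclusion is drawn from it. For Racgap1 r was -0.02 among the 40 tumours with chromosome 15 below 0 and 0.55 among the 40 above it. For Mad2l1 it was 0.23 among 45 tumours with chromosome 6 below 0 and 0.53 among 35 above it, and for Ncapd2 it was 0.01 below and 0.39 above. Before the regression, the mean over chromosome 6 genes was above 0 in 4 of 20 E2F2 null tumours, against 12 of 20 wild-type tumours, with averages of -0.11 ± 0.14 in E2F2 null and 0.06 ± 0.21 in wild-type tumours (SD, n = 20 each). Chromosome 15 averaged 0.01 ± 0.24 in E2F2 null and -0.02 ± 0.24 in wild-type tumours. DNA copy number was not measured, and the part of the chromosome signal in the genotype values was not tested.

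**Figure D5:**
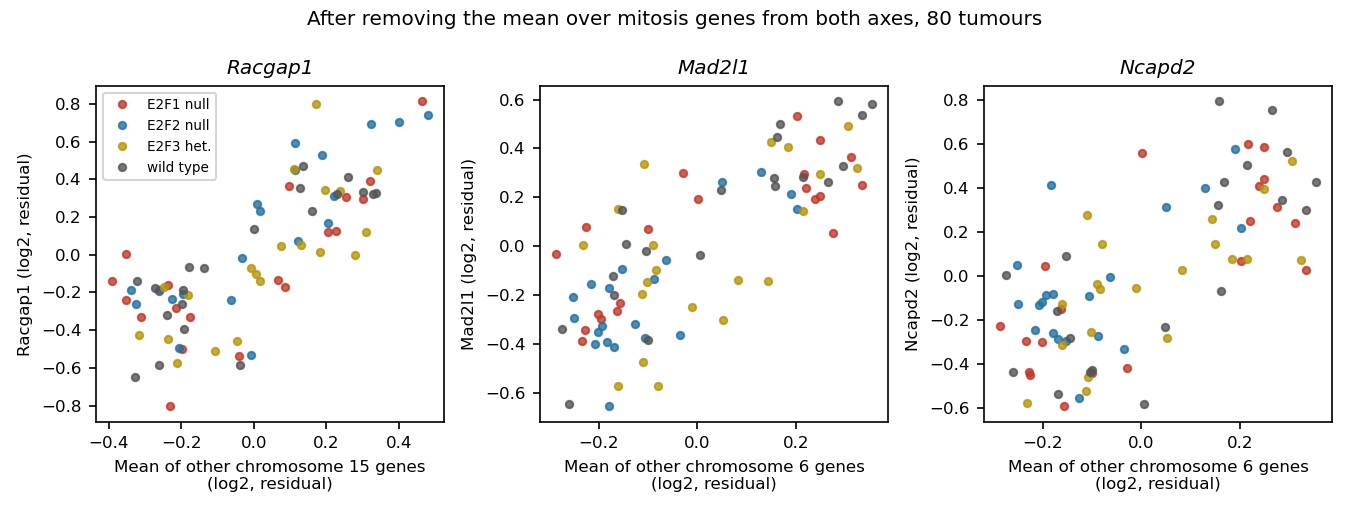
What remained of the log2 signal of Racgap1, Mad2l1 and Ncapd2 after the mean of the members was removed (vertical axes), against the same for the other genes of chromosome 15 or 6 (horizontal axes), 1 point per tumour, coloured by genotype. The r values are 0.79, 0.78 and 0.70, and tumours of all 4 genotypes lie on both sides of 0 on the horizontal axis.

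Several members lie on the chromosome of a targeted gene. Of 7 members on chromosome 2, Tpx2 starts 1.7 Mb from E2f1 and Ube2c 10.2 Mb from it, and their log2 fold changes in E2F1 null tumours were 0.02 (SE 0.11) and 0.07 (SE 0.13). On chromosome 4, Cdc20 lies 17.7 Mb and Kif2c, a microtubule-depolymerising kinesin, 19 Mb from E2f2, with values of 0.26 and 0.16 in E2F2 null tumours. Cks2, a Cdk1-binding subunit, lies 21.7 Mb from E2f3 on chromosome 13 and had -0.02 (SE 0.11) in E2F3 heterozygous tumours.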

How the data were processed

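RNA from 80 tumours was hybridised to 1-colour Affymetrix arrays, 1 per tumour, and samples were grouped by the genotype in their labels. The authors deposited linear intensity values, made with MAS5 in Affymetrix Expression Console per the submitters' processing notes; no versions and no genome build were found in these sources. Each array had a 2% trimmed mean of about 499.95 to 499.96, so a change in total RNA per cell cannot be seen. The table holds 22690 probe sets. After 64 controls were left out, 20380 carried 1 gene symbol, updated by gene ID to the RefSeq table, 691 carried several and 1555 none.

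Values were converted to log2(value + 5). A probe set was kept when above 74.6, the 40th percentile, on at least 10 arrays, and the brightest stood for its gene. Fold changes are on this scale and are understated for dim genes. All 80 arrays entered 1 limma 3.58.1 fit (statmod 1.5.0, R 4.3.3) with genotype as factor and the label number as random block (consensus correlation 0.159), since such tumours could stem from a single animal. The labels do not say what this number means. There were 16 numbers in E2F1 null, 11 in E2F2 null, 10 in E2F3 heterozygous and 16 in wild-type tumours. Moderation used trend and robust options, and two-sided p-values were adjusted by Benjamini-Hochberg over 8769 genes. Where nothing shows that tumours came from separate animals, p-values measure the spread between these tumours.

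The number of arrays sets the precision, and the median SE over members was 0.13 in E2F2 null against wild type. Data with 8769 genes, each drawn independently of the others, were simulated for that comparison. Of 100 genes changed by 0.5 on the log2 scale 66% were recovered, and of 100 changed by 1, 87%. There were 9 false calls among 162. In the measured comparison 2 genes were called. Recovery with so few calls, among correlated genes, or of changes like the members' median of 0.18 and highest of 0.38, was not tested.

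Full statistics were given for the 5 members with the smallest p in each comparison and for any past the threshold. The 10 most and 5 least alike genes were ranked by Pearson r with the mean of the members. The members, the other gene lists and the tests were chosen with earlier results of these data known, so no p is given for a list. Promoter windows came from RefSeq (GRCm38.p6). Alternatives covered the pseudocount, filter, normalization, block, probe set rule, moderation and the array that stood apart. Python 3.11.15 with numpy 2.4.6, pandas 2.3.3, scipy 1.17.1 and matplotlib 3.10.9 were used.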

Additional observations from a re-analysis of the deposited data

How the results depend on the processing

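The count of members called by limma was 0 in all 6 genotype comparisons and in the F test under the settings reported and under each of 12 alternatives. The lowest adjusted p over these against wild type was 0.998 for E2F1 null, 0.458 for E2F2 null and 1.000 for E2F3 heterozygous tumours; it was 0.292 in E2F1 null against E2F2 null, 0.733 in E2F1 null against E2F3 heterozygous, 0.396 in E2F2 null against E2F3 heterozygous tumours and 0.640 in the F test. In E2F2 null against wild-type tumours 45 to 46 members stayed positive, the log2 fold change of Plk1 ran from 0.33 to 0.40, and the number at an unadjusted p under 0.05 ran from 7 to 15, with 14 under median centring and 15 with 1 mean per label number. In E2F1 null against E2F2 null tumours that number was 11 under median centring and 1 without the E2F1 null tumour that stood apart. In E2F2 null against E2F3 heterozygous tumours it was 5 under median centring, 7 with each probe set fitted separately and 0 with 1 mean per label number. With probe sets fitted separately, a member counted when any of its probe sets, detected or not, reached that level, so this count is not like the others. Positive members in E2F1 null against E2F3 heterozygous tumours were 11 with 1 mean per label number and 29 without the tumour that stood apart, and against wild type they ran from 28 to 40 in E2F1 null and from 28 to 46 in E2F3 heterozygous tumours. The cause of these differences was not tested. The median r with the other members was 0.80 by Spearman, 0.83 after quantile normalization and, in an alternative chosen after seeing the data, 0.79 without the pair of tumours farthest from the median. No paired analysis was possible because the label numbers do not pair tumours across genotypes. Cenpe, near the filter value, is the member whose values are limited most by dim signal.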
